A study of Mus musculus with 14 samples.

Results

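Enzyme families that oxidise, cleave and conjugate foreign chemicals were followed as 73 genes across 14 mouse lung RNA-seq libraries. A gene was a member when its symbol fell in the cytochrome P450 families Cyp1 to Cyp4, the glutathione S-transferases, the aldehyde dehydrogenases, the flavin monooxygenases (Fmo), the Ces1 carboxylesterases, the UDP-glucuronosyltransferases (Ugt) or the sulfotransferases (Sult), and its mean over the 14 libraries was at least 1 CPM (counts per 1000000 counts of the library). The deposited data list 54347 genes; 179 had such a symbol, and 73 of these reached the mean. The members were thus selected on their mean level over all libraries, so levels are given as a description. No contrast between groups entered the choice, but the gene family was picked with earlier results of these libraries known. Symbols alone set the families, and 9 members serve amino acid, folate or carnitine metabolism.

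All mice were C57BL/6 and were exposed through the nose to an extract of the mould Alternaria alternata, an allergen, daily on 4 days (2 mg in 40 µl each time). JAK1 GOF recipients (n = 2) carried a human JAK1 gain of function and WT recipients (n = 2) did not; both were irradiated and given WT bone marrow, so the genotypes differed in the cells that the host kept. JAK1 is a kinase of cytokine receptors, and the promoter driving the human gene was not given in the sources used here. Intrathecal RTX mice (n = 3) were WT and received resiniferatoxin, a toxin for sensory neurons that bear the channel TRPV1, at 25 ng per mouse on 2 days, and their intrathecal vehicle controls (n = 2) received 10 µl saline. Subcutaneous RTX mice (n = 3) were WT and received 30, 70 and 100 µg/kg over 3 days, and their subcutaneous vehicle controls (n = 2) received 100 µl saline. Per the series' design text the intrathecal route was meant to remove spinal visceral afferents and the subcutaneous route both vagal and spinal ones. Whether each library is a mouse of its own is not stated in the labels; the p-values therefore cover the variation among these libraries, part of which may be technical.

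Foreign compounds are handled in steps. Cytochrome P450 and flavin monooxygenases insert oxygen, aldehyde dehydrogenases oxidise reactive aldehydes to acids, and carboxylesterases cleave esters. Transferases then attach glutathione, glucuronic acid or sulfate, which makes the product soluble and ready for export. In the mouse airway much of this capacity lies in club cells, the non-ciliated secretory cells of the bronchioles, which are known for bioactivating inhaled toxicants such as naphthalene through Cyp2f2.

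The sequence before the transcription start is shown for 3 genes on which later values turn. Cyp2b10 had one of the 2 smallest p-values after subcutaneous RTX, Cyp1a1 varied most between libraries of 1 group, and Cyp4f18 rose where most members fell. Each run is the 250 bases upstream of the RefSeq start on the gene's own strand, in GRCm38.p6. Capitals mark GCGTG, the core of the element bound by the aryl hydrocarbon receptor (CACGC on the other strand), or TGACNNNGC, the core of the antioxidant response element.
Cyp2b10, chr7:25897408-25897657, plus strand: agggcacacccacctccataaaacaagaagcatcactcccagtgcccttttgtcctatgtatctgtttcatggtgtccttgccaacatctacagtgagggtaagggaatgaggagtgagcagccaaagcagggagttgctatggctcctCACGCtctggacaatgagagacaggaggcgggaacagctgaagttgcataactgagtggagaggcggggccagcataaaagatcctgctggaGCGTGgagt
Cyp1a1, chr9:57697363-57697612, plus strand: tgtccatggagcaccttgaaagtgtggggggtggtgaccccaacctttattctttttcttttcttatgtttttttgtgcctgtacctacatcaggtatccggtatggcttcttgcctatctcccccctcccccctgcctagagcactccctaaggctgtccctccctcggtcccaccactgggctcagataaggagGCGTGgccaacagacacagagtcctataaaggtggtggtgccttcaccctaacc
Cyp4f18, chr8:72009627-72009876, minus strand: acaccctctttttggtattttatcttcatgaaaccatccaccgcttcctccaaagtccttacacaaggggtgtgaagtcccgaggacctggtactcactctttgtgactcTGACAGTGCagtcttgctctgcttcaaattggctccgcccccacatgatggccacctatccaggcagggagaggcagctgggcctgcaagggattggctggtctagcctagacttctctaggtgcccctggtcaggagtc
The Cyp1a1 window held GCGTG once, beginning 54 bases before the start. The Cyp2b10 window held it on the sense strand 9 bases before the start and on the antisense strand 101 bases before it. Cyp4f18 held TGACNNNGC beginning 140 bases before the start. Both strands were searched in the 69 windows of 58 of the 73 members. GCGTG was in 21 of these windows (30.4%), against 28.2% of all 32851 windows of this length, and TGACNNNGC in 6 (8.7%), against 10.2%. The D-box forms TTACGTAA and TTATGTAA, bound by clock-controlled factors, were in 0 and 2 of the 69 (2.9%, of Ces1e and Ces1g), against 0.113% and 0.819% of all windows. None of these 4 letter patterns was in the same window of Cyp2a5 or Cyp4b1. A match is a run of letters and no evidence of binding.

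The members covered the families unevenly. Aldehyde dehydrogenases reached the mean in 18 of 21 rows and glutathione S-transferases in 17 of 21, but Cyp2 in 11 of 49, Cyp4 in 8 of 21, Cyp3 in 1 of 9 (Cyp3a13), Cyp1 in 2 of 3, Fmo in 5 of 7, Ces1 in 4 of 8, Ugt in 3 of 19 and Sult in 4 of 21. Of the 106 rows below the mean, 23 had no count in any library. Alb, the serum albumin of liver cells, which also carry these enzymes, was at 0.0902 to 4.77 CPM in the 14 libraries. Just inside the limit lay Cyp2ab1 at a mean of 1.16 CPM, Cyp2r1 at 1.21 and Cyp2u1 at 1.43, and just outside it Gsto2 at 0.917, Aldh3b2 at 0.588 and Ugt1a1 at 0.586. In 69 of the 73 genes the mean was at least 1 CPM in each of the 6 groups; Gsta2, Cyp2u1, Cyp2ab1 and Cyp2r1 were the exceptions.

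Per kilobase of exon, Cyp2f2 was the most abundant member at a mean of 402 CPM per kb. It was followed by Cyp4b1, a P450 of fatty acid and furan oxidation, at 141, by Aldh1a1, a retinal dehydrogenase, at 139, and by Aldh2, the mitochondrial acetaldehyde dehydrogenase, at 116. Gsto1, a glutathione transferase of the omega class, stood at 110 CPM per kb, the carboxylesterase Ces1d at 108, Gstm1 at 99, the main lung flavin monooxygenase Fmo2 at 98.7 and Cyp2b10 at 91.6. Taking the longest transcript in place of all exons put Aldh1a1 at 291 CPM per kb and Gsto1 at 189, so the order after Cyp2f2 depends on the length used. In CPM, 14 members were at 100 or more, 32 between 10 and 100 and 27 below 10, and the 5 most abundant held 50.7% of the summed level.

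**Figure D1:**
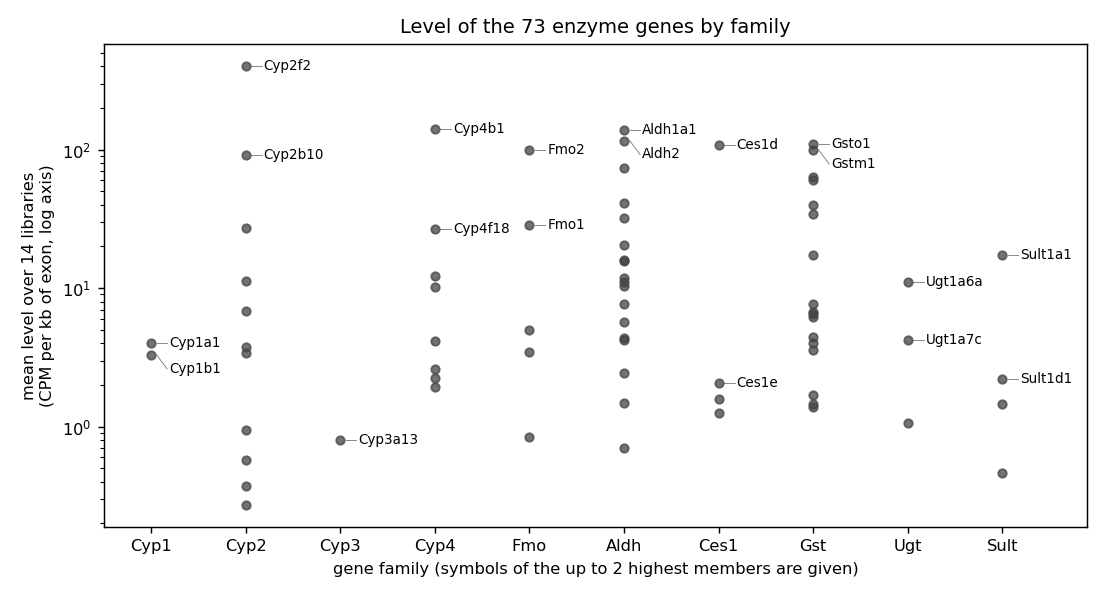
Mean level of each of the 73 genes over 14 libraries in CPM per kilobase of exon on a log axis, by family (1 point a gene). Cyp2f2 at 402 stood above all other members, and the Cyp1, Cyp3, Ugt and Sult members lay below the top genes of the other families.

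Summed over the 73 genes, the level was 7235 and 8006 CPM in JAK1 GOF recipients against 7366 and 5844 CPM in WT recipients. It was 5223, 6345 and 4959 CPM after intrathecal RTX against 6198 and 6033 CPM with intrathecal vehicle. After subcutaneous RTX it was 3652, 4384 and 4209 CPM against 7408 and 5088 CPM with subcutaneous vehicle. Only the subcutaneous groups did not overlap. Libraries held 18198872 to 24393000 counts, so 3 counts, the level taken as detectable, corresponded to 0.123 to 0.165 CPM. This floor covers counting error only, because amplified reads without molecular tags need not be separate molecules. Subcutaneous vehicle 1 was the highest library of its experiment in 51 of the 73 genes and subcutaneous RTX 1 the lowest in 44, and WT recipient 2 was the lowest of the chimera libraries in 40.

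**Figure D2:**
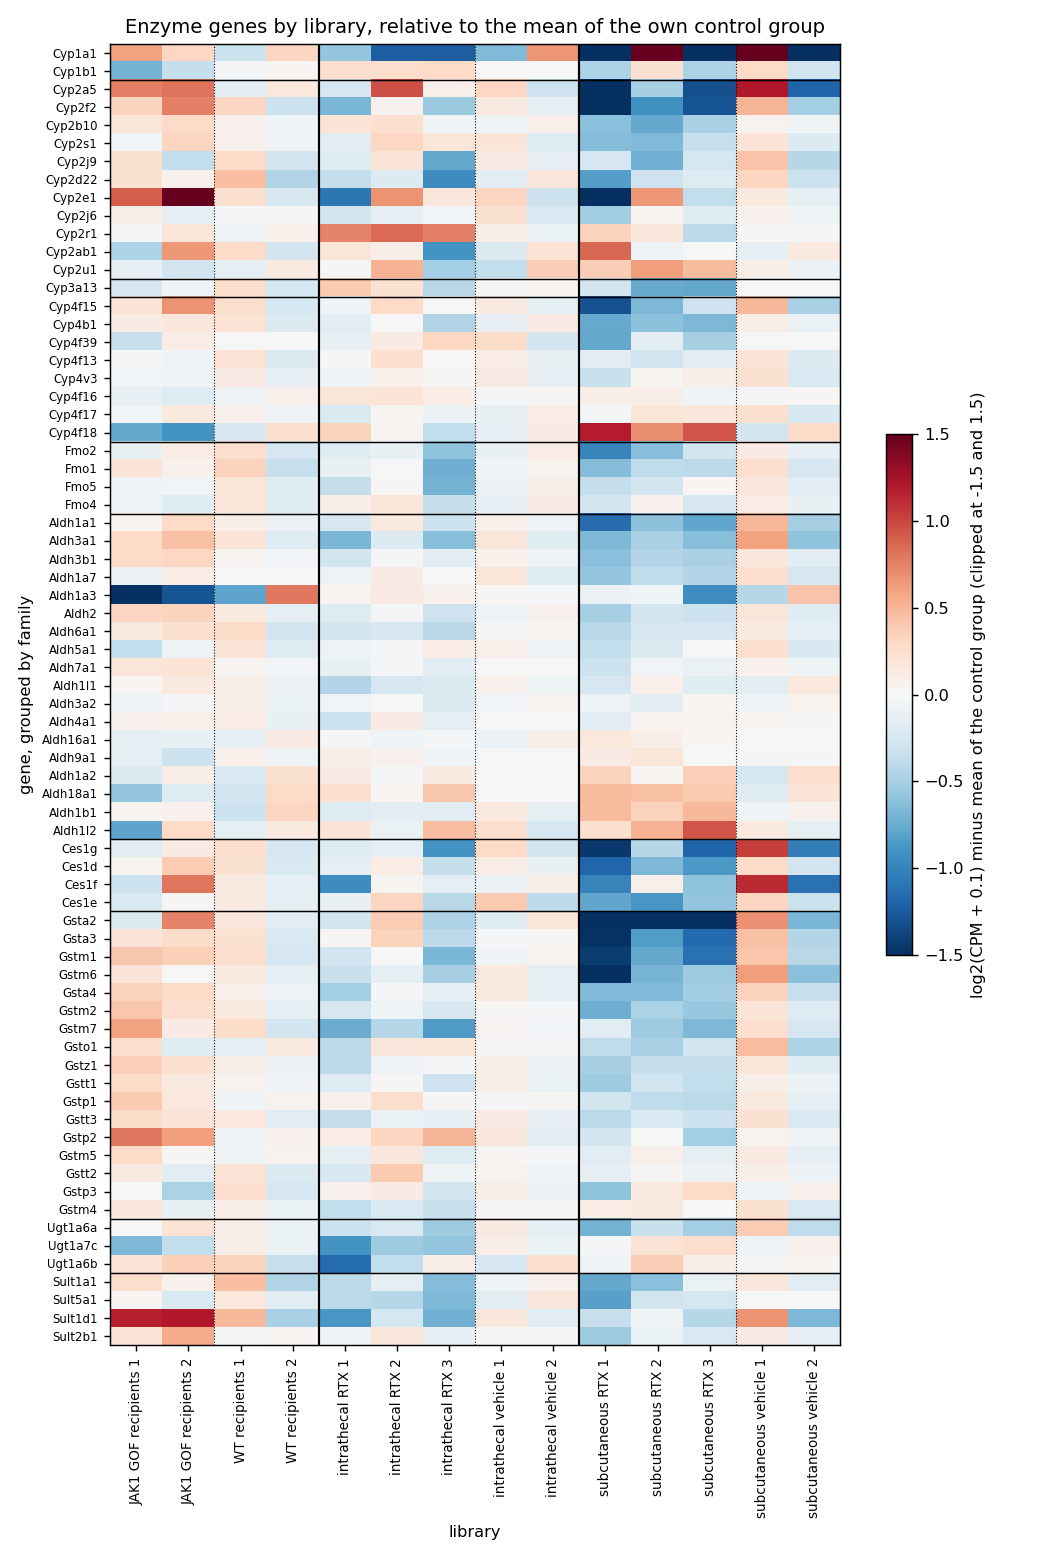
Enzyme genes, 72 of the 73 (rows, by family and then by subcutaneous RTX fold change) in the 14 libraries (columns), as log2(CPM + 0.1) minus the mean of the control group of the same experiment, clipped at −1.5 and 1.5. Blue fills much of the 3 subcutaneous RTX columns, and subcutaneous vehicle 1 is red in many of the same rows.

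After subcutaneous RTX the abundant oxidising and conjugating enzymes sat below their controls. Of the 14 members at 100 CPM or more, all 14 had a log2 fold change below 0. In 12 the groups did not overlap (the exceptions were Aldh3a2 and Gsto1). Without subcutaneous vehicle 1 Gsto1 turned to 0.06, and the others stayed below 0. The shares of all genes given below cover genes of every level. No member passed the adjusted p of 0.05 in edgeR's quasi-likelihood test, and none of all 17363 genes tested did (0% called). At an unadjusted p under 0.05, 25 of the 73 were lower and 3 higher, where 9.19% of all genes tested were lower and 8.97% higher. The groups lay apart with RTX lower in 26 members (35.6%, against 17.8% of all genes tested) and with RTX higher in 6 (8.22%, against 20.5%). The median log2 fold change of the members was −0.39, with 58 of 73 below 0, beside a median of −0.00 over all genes, 50.8% of which were below 0. By family, an unadjusted p under 0.05 with a lower level was found in 10 of 17 Gst, 5 of 18 Aldh, 3 of 11 Cyp2, 3 of 5 Fmo, 2 of 4 Ces1, 1 of 8 Cyp4 and 1 of 3 Ugt members. DESeq2 called 15 members, 14 lower and 1 higher, and left 11 without an adjusted p; it called 761 of the 13657 genes to which it gave one (5.57%), 373 lower and 388 higher.

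The size of these counts turned on which control library was included. Without subcutaneous vehicle 1 the median was −0.12, 47 members were below 0 (49.6% of all genes), 12 were lower at an unadjusted p under 0.05 (4.2% of all genes) and 0 were called (0.00558% of all genes). Without subcutaneous vehicle 2 the median was −0.51 and 24 members were called, 22 lower and 2 higher, where 4.81% of all genes were called. Each of these fits leaves 1 control, which is assumed to vary like the RTX libraries.

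**Figure D3:**
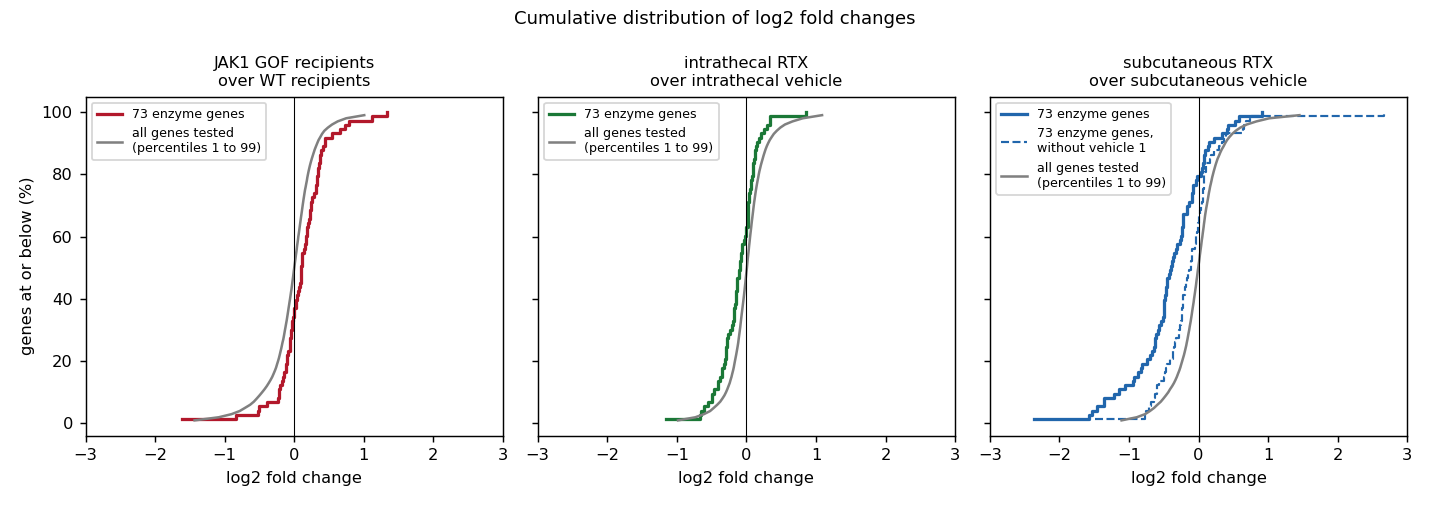
Cumulative share of genes (y, %) at or below each log2 fold change (x) for the 73 enzyme genes (coloured steps) and for all genes tested (grey), in JAK1 GOF over WT recipients, intrathecal RTX over vehicle and subcutaneous RTX over vehicle. The subcutaneous curve of the members lies left of all genes with a median of −0.39, and the dashed curve without vehicle 1, with a median of −0.12, lies closer to them.

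The P450s with the smallest p were Cyp4b1 and Cyp2b10. Cyp4b1, on the minus strand of chromosome 4 (GRCm38, 115624725 to 115647723), measured 194, 213 and 205 CPM after subcutaneous RTX against 351 and 306 CPM with vehicle. Cyp2b10, known in mouse liver as a phenobarbital-inducible P450 (chromosome 7, 25897620 to 25926624, plus strand), was at 131, 119 and 144 CPM against 209 and 196 CPM. In both genes every RTX library was below every vehicle library and the controls were close to each other. The log2 fold change was −0.70 ± 0.08 (SE) for Cyp4b1 and −0.64 ± 0.09 for Cyp2b10, each with an edgeR adjusted p of 0.0947 (n = 3 and 2). Leaving out vehicle 1 gave −0.60 and −0.59 for these genes. Each gene was called in 5 of 16 settings. For Cyp4b1 the edgeR adjusted p was 0.0429 in a fit of all 14 libraries and 0.0123 without vehicle 2, but 0.282 without vehicle 1 and 0.306 with a replicate block. For Cyp2b10 it was 0.0236 and 0.0234, but 0.341 without vehicle 1 and 0.261 with a replicate block. In limma voom the adjusted p was 0.127 and 0.136.

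Cyp2f2 (chromosome 7, 27119909 to 27133660, plus strand) was at 272, 465 and 359 CPM after subcutaneous RTX against 1249.5 and 616 CPM with vehicle. The groups did not overlap, but the controls differed more from each other than vehicle 2 did from the RTX libraries. Its log2 fold change was −1.37 ± 0.38 (edgeR adjusted p = 0.199), and −0.77 without vehicle 1. Cyp2s1, a P450 of the airway, had 80.4, 80.2 and 99.5 CPM against 146 and 110 CPM. Cyp4f18, which in the mouse oxidises leukotriene B4 and is known from neutrophils, ran the other way at 99.9, 71.4 and 84.5 CPM against 36.1 and 53.4 CPM. The log2 fold change of Cyp4f18 was 0.92 ± 0.21 (edgeR adjusted p = 0.138), the largest positive one among members at an unadjusted p under 0.05.

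**Figure D4:**
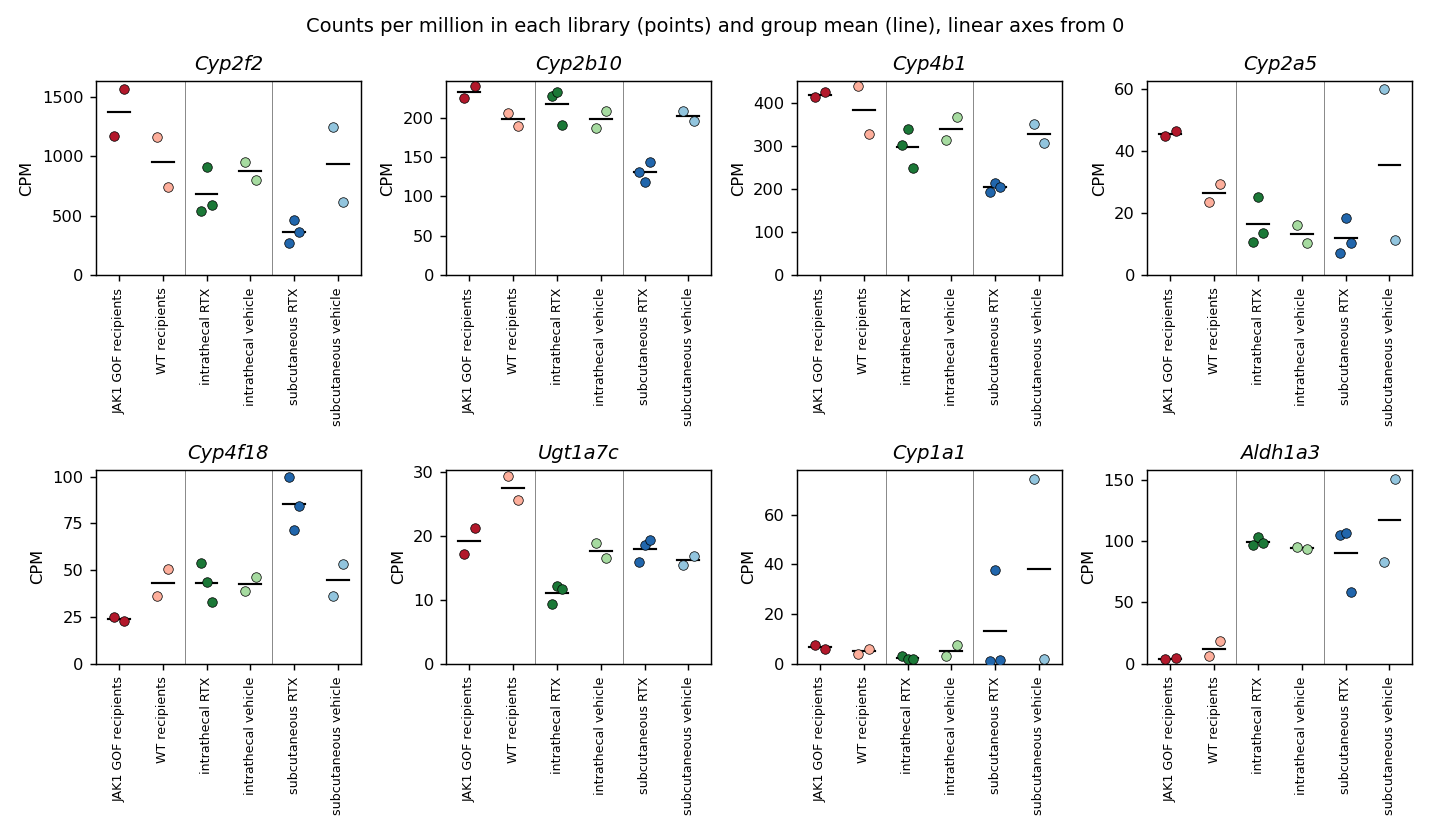
CPM of 8 genes in each library (points) with the group mean (line), by group, on linear axes from 0. Cyp4b1 and Cyp2b10 are low in the 3 subcutaneous RTX libraries, Cyp2a5 is high in both JAK1 GOF recipients and in subcutaneous vehicle 1, Cyp1a1 is high in 1 vehicle and 1 RTX library, and Aldh1a3 is low in all 4 chimera libraries.

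Among the other oxidising enzymes and the esterases, Fmo2 stood at 223, 286 and 365 CPM after subcutaneous RTX against 484 and 408 CPM with vehicle. Fmo1, another drug-oxidising member of that family, stood at 103, 125 and 124 CPM against 194 and 136 CPM. Aldh1a1 had 363, 524 and 469 CPM against 1133 and 569 CPM, and Aldh2 had 376, 438 and 425 CPM against 601 and 467 CPM. For Aldh1b1, a mitochondrial aldehyde dehydrogenase, the values were 7.84, 7.16 and 7.85 CPM against 5.37 and 5.83 CPM (log2 fold change 0.43 ± 0.16, edgeR adjusted p = 0.229), and for Aldh18a1, which makes a proline precursor, 61.8, 60.1 and 58.2 CPM against 38.8 and 51.0 CPM (0.41 ± 0.12, 0.154). Ces1e, a carboxylesterase of low level here, had 3.34, 3.12 and 3.83 CPM against 7.26 and 4.65 CPM. Ces1d had 118, 168 and 148 CPM against 329 and 219 CPM, with a log2 fold change of −0.94 ± 0.22 (edgeR adjusted p = 0.141). In each of these genes the groups did not overlap. Every gene of these that was lower after RTX had its highest subcutaneous value in vehicle 1. Without that library Aldh1a1 was at −0.35, Aldh2 at −0.20, Fmo1 at −0.23, Fmo2 at −0.50, Ces1e at −0.46 and Ces1d at −0.62. Without vehicle 2 they were at −1.34, −0.55, −0.73, −0.74, −1.09 and −1.20. Aldh18a1 was at 0.22 without vehicle 1. Aldh1b1 was at 0.68 when all 14 libraries were fitted with a term for library state. This term divides the libraries by whether Rps3a2 or Hmga2, transcripts that split them across the groups, was above 2 CPM. The 9 members that serve amino acid, folate or carnitine metabolism had a median of −0.13, and the 64 others −0.46. This split was chosen after seeing the data and holds for the fit with both controls. Without vehicle 1 the median over all members was −0.12.

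In conjugation, the alpha class transferase Gsta3 was at 31.1, 48.7 and 39.0 CPM after subcutaneous RTX against 118 and 64.3 CPM with vehicle, and Gstm1 of the mu class at 61.8, 97.8 and 76.7 CPM against 222 and 125 CPM. Their log2 fold changes were −1.22 ± 0.32 and −1.15 ± 0.32 (edgeR adjusted p = 0.182 and 0.195). Gsta2, a low gene of the alpha class, had 0.558, 0.588 and 0.856 CPM against 5.02 and 1.88 CPM (−2.37 ± 0.46, edgeR adjusted p = 0.113). In all 3 the groups lay apart. Without vehicle 1 these values were −0.72 for Gsta3, −0.68 for Gstm1 and −1.5 for Gsta2. Gstm2, also of the mu class, had 67.5, 81.2 and 75.6 CPM against 129 and 98 CPM, again with no overlap. Gstp1, the pi class enzyme of the airway, had 93.7, 87.2 and 85.8 CPM against 125 and 102 CPM. The glucuronosyltransferase Ugt1a7c overlapped at 16.0, 18.7 and 19.4 CPM against 15.5 and 16.9 CPM, as did the sulfotransferase Sult1a1 at 14.6, 16.2 and 23.3 CPM against 28.1 and 22.2 CPM. Sult5a1, an orphan sulfotransferase of low level, lay apart at 3.16, 4.63 and 4.69 CPM against 5.59 and 5.68 CPM. Of Gsta2, 60.7% of 31-base words also occur in other genes, and of Gstp1 38.5%, mostly in Gstp2, so reads of these copies could be split between them.

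Markers of club, ciliated and alveolar type 1 cells moved with these genes. The sum of 12 club cell markers was 5504 to 5892 CPM after subcutaneous RTX against 8645 and 13071 CPM with vehicle, and 9 of the 12 were lower at an unadjusted p under 0.05. Scgb1a1, the main club cell secretory protein, had 4092, 4207 and 4649 CPM against 10900 and 6993 CPM. The sum of 12 ciliated cell markers was 339 to 364 CPM against 443 and 680 CPM. That of 9 alveolar type 1 markers was 4595 to 4838 CPM against 6112 and 6482 CPM. Sums of 9 goblet cell and 9 alveolar type 2 markers overlapped, with 2 lower in each at an unadjusted p under 0.05. Goblet cell markers summed to 2549, 2119 and 2419 CPM against 3843 and 2385 CPM. Alveolar type 2 markers summed to 14608, 17907 and 16730 CPM against 22115 and 17377 CPM. Cyp2f2 amounted to 6.65%, 11% and 7.71% of the Scgb1a1 CPM after RTX against 11.5% and 8.81% with vehicle, so relative to Scgb1a1 the groups overlapped. Cyp4b1 amounted to 4.73%, 5.07% and 4.4% against 3.22% and 4.38%, and Cyp2b10 to 3.21%, 2.83% and 3.10% against 1.92% and 2.80%. For Cyp4b1 and Cyp2b10 this ratio was higher in every RTX library than in either control, but the lowest RTX value and vehicle 2 nearly met. The same ratio overlapped between the groups for Aldh1a1, Gsta3 and Ces1d. In bulk tissue fewer cells of a type and less RNA per cell cannot be told apart. Other cell types moved as well. The sum of 10 endothelial markers was 2072, 2467 and 2271 CPM after subcutaneous RTX against 2635 and 2503 CPM with vehicle, with 4 lower at an unadjusted p under 0.05. The alveolar macrophage sum lay above both controls at 4809, 5843 and 5297 CPM against 4433 and 3829 CPM, with 3 of the 8 markers tested higher and 1 lower. Of 9 B and plasma cell markers 5 were higher; their sum was 4707, 1110.5 and 900 CPM against 1765 and 888 CPM, highest in subcutaneous RTX 1. Heart muscle markers summed to 157, 194 and 153 CPM against 475 and 128 CPM, highest in vehicle 1. The part of these in the member values was not tested.

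**Figure D5:**
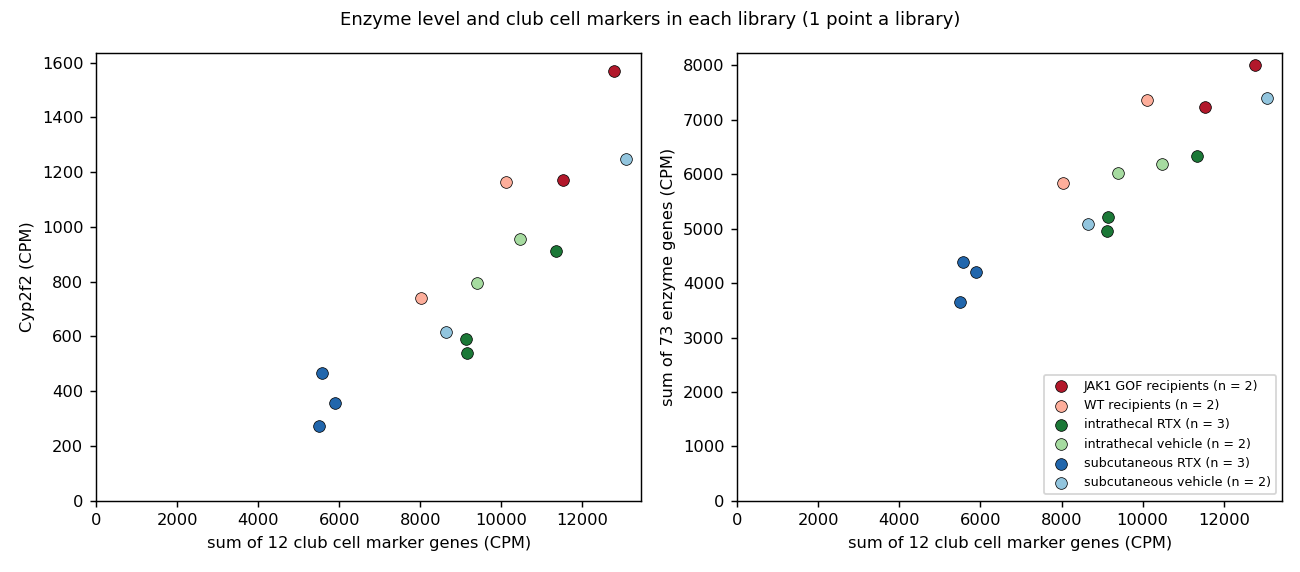
Cyp2f2 (left) and the sum of the 73 genes (right) in CPM against the summed CPM of 12 club cell markers, 1 point for each of 14 libraries, coloured by group. The 3 subcutaneous RTX libraries are lowest on every axis, and libraries with more club cell marker RNA have more enzyme RNA across the groups.

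Other genes of the pathway, taken as lists that hold no members, were counted in the same way after subcutaneous RTX. Of 24 further oxidation, reduction and hydrolysis enzymes 10 were lower at an unadjusted p under 0.05 and 0 higher (median −0.38). Of 12 further conjugation enzymes 5 were lower and 0 higher (median −0.22), and 0 were called in either. Over all genes tested 9.19% were lower and 8.97% higher. Both list sums were highest in vehicle 1. The first was 2329, 2615 and 2488 CPM after RTX against 4285 and 3123 CPM with vehicle. The second was 542, 608 and 622 CPM against 1152 and 855 CPM. Cbr2, a lung carbonyl reductase, had 562, 777 and 688 CPM against 2122 and 1228 CPM, and Inmt, which methylates indoles, 213, 269 and 294 CPM against 666 and 477 CPM. Electron donors and heme supply had 4 of 11 lower, among them Cyb5a and Alas1, the first enzyme of heme synthesis; the P450 reductase Por had 242, 292 and 276 CPM against 355 and 309 CPM. The 18 receptors and regulators tested, including Ahr, Nfe2l2 and the nuclear receptors, had 0 lower and 0 higher, with a median of 0.03. Of 12 glutathione and cofactor genes 2 were lower and 2 higher; the cystine importer Slc7a11, which feeds glutathione synthesis, had 29.4, 34.0 and 25.7 CPM against 15.6 and 13.4 CPM. Transporters had 3 of 17 lower, retinoid handling 2 of 13 lower and clock genes 6 of 16 lower and 1 higher.

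Cyp1a1, the P450 most strongly induced through the aryl hydrocarbon receptor (chromosome 9, 57687928 to 57703824, plus strand), varied widely between libraries of the same subcutaneous group. It was at 1.07, 37.6 and 1.29 CPM after subcutaneous RTX and at 74.4 and 2.08 CPM with subcutaneous vehicle. After intrathecal RTX it was at 3.09, 1.92 and 1.93 CPM against 2.91 and 7.48 CPM with vehicle, where the groups overlapped; the log2 fold change was −1.15 ± 0.41 (unadjusted p = 0.0218 and adjusted p = 0.338 in edgeR), −0.31 without vehicle 2 and −1.93 with library state. In the 4 chimera libraries Cyp1a1 lay between 3.86 and 7.39 CPM. Of the other genes taken as signs of this receptor, Tiparp had 44.7, 36.4 and 34.6 CPM after subcutaneous RTX against 38.4 and 39.6 CPM. Ahrr was at most 0.619 CPM in any library, a low level at which libraries are hard to compare. Whether the receptor was active was not tested. Cyp1b1, another gene of the same family, had 14.9, 24.5 and 14.9 CPM against 25.6 and 17 CPM, again highest in subcutaneous RTX 2 and vehicle 1, and Nqo1, a quinone reductase, had 3.06, 4.4 and 2.26 CPM against 10.2 and 4.4 CPM. No test across groups bears on a difference between libraries of 1 group.

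After intrathecal RTX no member passed the threshold, where 0.311% of all 17360 genes tested did. At an unadjusted p under 0.05, 10 of 73 were lower and 3 higher, beside 5.63% and 5.85% of all genes, and the groups lay apart with RTX lower in 14 (19.2%, against 16.8% of all genes tested) and with RTX higher in 6 (8.22%, against 13.5%). The median was −0.09 with 46 of 73 below 0 (48.5% of all genes). Conjugating enzymes made up 6 of the 10: 3 of 4 Sult, 2 of 3 Ugt and 1 of 17 Gst members. Without intrathecal RTX 2, which was the highest library of the experiment in 23 members, 21 were lower at an unadjusted p under 0.05 (5.45% of all genes) and the median was −0.21. Leaving out any other library left 4 to 6 lower. It was 6 without vehicle 1 (3.44% of all genes), 5 without vehicle 2 (3.78%), 5 without RTX 1 (6.77%) and 4 without RTX 3 (4.66%). DESeq2 called 1 member, Ugt1a7c, and 1.62% of all genes.

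Ugt1a7c (chromosome 1, 88095062 to 88220002, plus strand) was at 9.42, 12.2 and 11.7 CPM after intrathecal RTX against 18.9 and 16.6 CPM with vehicle. The groups did not overlap, and the log2 fold change was −0.66 ± 0.14 (edgeR adjusted p = 0.117). Ugt1a6a, from the same locus, was at 40.7, 43.1 and 35.0 CPM against 55.7 and 46.2 CPM. The Ugt1a genes share their last exons, and 55.7% of the 31-base words of Ugt1a7c and 53.0% of those of Ugt1a6a occur in other genes, so their counts are not independent. The groups lay apart in the same direction in 3 sulfotransferases: Sult1a1, of phenol sulfation, at 19.9, 23.9 and 16.8 CPM against 25.1 and 27.7 CPM; Sult5a1 at 5.68, 5.53 and 4.63 CPM against 6.64 and 8.39 CPM; and Sult1d1, which sulfates catecholamines in the mouse, at 1.91, 2.96 and 2.13 CPM against 4.05 and 3.17 CPM. Their log2 fold changes were −0.37 ± 0.14, −0.49 ± 0.18 and −0.62 ± 0.27 (edgeR adjusted p = 0.349, 0.348 and 0.427). With library state as a term Sult1a1 turned to 0.23, Sult5a1 was at −0.10, Sult1d1 at −0.36 and Ugt1a7c at −0.43. In the intrathecal experiment state and RTX coincide, so the size of that term came from the WT recipient and subcutaneous libraries. Intrathecal values with this term assume that state acts alike in all experiments, which was not tested. Sult5a1 was at −0.31 without vehicle 2.

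Aldh3a1, which clears lipid aldehydes, had 4.59, 6.46 and 4.76 CPM after intrathecal RTX against 8.46 and 6.57 CPM, and Gstm7 had 1.73, 2.17 and 1.60 CPM against 3.05 and 2.85 CPM. Their log2 fold changes were −0.50 ± 0.21 and −0.67 ± 0.26 (edgeR adjusted p = 0.404 and 0.376). On the other side lay Cyp2r1, the vitamin D 25-hydroxylase, at 1.54, 1.68 and 1.56 CPM against 0.955 and 0.816 CPM, and Cyp1b1 at 20.8, 21 and 21.5 CPM against 17.6 and 17.4 CPM. These had 0.86 ± 0.33 and 0.29 ± 0.10 (edgeR adjusted p = 0.371 and 0.313), with Aldh18a1 at 0.26 ± 0.11 (0.432). With library state these 3 were at 0.55, 0.16 and 0.00; Aldh18a1 was at 0.15 without RTX 3, and Aldh3a1 at −0.31 without vehicle 1. Cyp2f2 overlapped at 541, 911 and 591 CPM against 954 and 797 CPM, Cyp4b1 at 303, 340 and 248 CPM against 313 and 368 CPM, and Cyp2b10 at 228, 233 and 191 CPM against 188 and 209 CPM. The club cell marker sum overlapped as well, at 9122 to 11350 CPM against 9392 and 10466 CPM. Alveolar type 1 markers lay apart, at 6447, 6594 and 5622 CPM after intrathecal RTX against 6627 and 7071 CPM, with 1 of 9 lower at an unadjusted p under 0.05. The sum of 10 fibroblast markers overlapped at 5789, 4647 and 6393 CPM against 7141 and 6241 CPM, but 1 of them was called lower and 3 were lower at an unadjusted p under 0.05. Their part in the member values was not tested.

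A set of trace transcripts split the intrathecal libraries as treatment did: Rps3a2 was at 0.0454 to 0.123 CPM in the RTX libraries and at 5 and 3.81 CPM in the vehicle libraries, and Hmga2 at 6.18 to 10.9 CPM against 0.5 and 1.09 CPM. Whatever separates these libraries cannot be told apart from RTX here. Of the pathway lists, 1 gene was called: the transcription factor Cebpb was higher at 93.4, 95.3 and 86.7 CPM after intrathecal RTX against 43.4 and 42.3 CPM with vehicle (1.12, edgeR adjusted p = 0.000399). Cebpb was at 29.7 and 33.8 CPM in subcutaneous RTX 2 and 3, which carried Rps3a2 at 6.38 and 4.69 CPM, and at 78.8 to 87.6 CPM in the other 3 subcutaneous libraries, which had at most 0.247 CPM of Rps3a2.

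The RTX effects of both routes were compared directly in 1 fit of 10 libraries. No member passed the threshold for the difference between subcutaneous and intrathecal RTX, and 0.0556% of all 17972 genes tested did; 13 members had an unadjusted p under 0.05 (10 lower after subcutaneous RTX and 3 higher, beside 7.68% and 7.53% of all genes). Cyp2b10 had the smallest p with a difference of −0.78 ± 0.15 on the log2 scale (edgeR adjusted p = 0.0919), followed by Ugt1a7c at 0.81 ± 0.19 (0.132) and Gstp1 at −0.50 ± 0.14 (0.159). Gsta2 differed by −2.27 ± 0.62 (0.166) and Cyp4b1 by −0.51 ± 0.17 (0.225). Without subcutaneous vehicle 1 Gsta2 was at −1.40, and with library state Ugt1a7c was at 0.42, Gstp1 at −0.13 and Cyp4b1 at −0.88. The median difference was −0.26 with 53 of 73 below 0 (50.7% of all genes), and without subcutaneous vehicle 1 it was −0.03 with 40 of 73 below 0 (49.3% of all genes). Of the 14 members at 100 CPM or more, all 14 had a difference below 0 in the fit of all 10 libraries. Both routes gave a log2 fold change below 0 in 39 of the 73 members (53.4%, against 25.5% of all genes tested in both). Below 0 were 58 members after subcutaneous and 46 after intrathecal RTX, so a large overlap follows from these shifts alone. Dose, route and the nerves reached differ together between the experiments and cannot be told apart.

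In the chimeras 1 member passed the threshold, where 0.717% of all 17298 genes tested did. Cyp2a5, a P450 that oxidises coumarin and nicotine (chromosome 7, 26835305 to 26843548, plus strand), rose to 44.6 and 46.5 CPM in JAK1 GOF recipients against 23.5 and 29.4 CPM in WT recipients. The groups lay apart, with a log2 fold change of 0.79 ± 0.14 (edgeR adjusted p = 0.0351, n = 2 and 2). The call was lost without JAK1 GOF recipient 1 (0.0571), without JAK1 GOF recipient 2 (0.0694), in limma voom (0.0648), without the robust prior (0.0525) and in fits of all 14 libraries (0.647, and 0.766 with library state). In these 6 fits the log2 fold change was 0.45 with library state and 0.76 to 0.81 in the others. Over all alternatives the adjusted p of Cyp2a5 ran from 4.92e-06 to 0.766. Of its 31-base words 54.6% occur in other genes, most of them in Cyp2a4, whose mean was 0.0484 CPM. The level of Cyp2a5 was 59.8 CPM in subcutaneous vehicle 1, above both JAK1 GOF recipients.

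Over all members, 11 were higher and 3 lower at an unadjusted p under 0.05 in JAK1 GOF recipients, beside 4.63% and 6.94% of all genes tested. The groups lay apart in 18 members with JAK1 GOF higher (24.7%, against 19.6% of all genes) and in 6 with it lower (8.22%, against 23%). The median was 0.10 with 46 of 73 above 0 (63.0%, against 50.1% of all genes). Without WT recipient 1, 20 were higher at this level (5.15% of all genes). Without WT recipient 2 it was 6 (3.92%), without JAK1 GOF recipient 1 it was 7 (2.27%) and without JAK1 GOF recipient 2 it was 8 (5.76%). Of the 11, 6 were glutathione S-transferases, of 17 such members. Cyp2e1, the ethanol-inducible P450 of liver and fat, had 15.7 and 26.4 CPM against 9.81 and 7.03 CPM, and Sult1d1 15.5 and 16.1 CPM against 9.72 and 4.93 CPM. Their log2 fold changes were 1.33 ± 0.27 and 1.12 ± 0.27 (edgeR adjusted p = 0.0735 and 0.116). Cyp2f2 had 1170.2 and 1568.8 CPM against 1163.5 and 741 CPM (0.54 ± 0.23, edgeR adjusted p = 0.412), Gstm1 230 and 223 CPM against 207 and 147 CPM (0.37 ± 0.16, 0.403), and Gstp2 6.19 and 5.45 CPM against 3.38 and 3.68 CPM (0.73 ± 0.25, 0.256). In each the groups did not overlap, but in Cyp2f2 the lower JAK1 GOF and the higher WT value nearly met. Single libraries moved these values: without WT recipient 1 Cyp2f2 was at 0.88 and Gstm1 at 0.62 (edgeR adjusted p = 0.0303 and 0.0438). Without WT recipient 2 Cyp2f2 was at 0.26, Gstm1 at 0.15 and Sult1d1 at 0.73, and without JAK1 GOF recipient 2 Cyp2f2 was at 0.31. Gstm2 had 145 and 129 CPM in JAK1 GOF recipients against 119 and 98.2 CPM in WT recipients, and Gsta4, which conjugates the lipid aldehyde hydroxynonenal, 66.3 and 64.4 CPM against 55.5 and 49.5 CPM.

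Lower in JAK1 GOF recipients at an unadjusted p under 0.05 were Cyp4f18, at 25.2 and 23.0 CPM against 36.4 and 50.4 CPM, Cyp1b1, at 13.2 and 16.9 CPM against 21.3 and 22.2 CPM, and Ugt1a7c, at 17.2 and 21.3 CPM against 29.4 and 25.7 CPM. Their log2 fold changes were −0.84 ± 0.17, −0.52 ± 0.16 and −0.51 ± 0.15 (edgeR adjusted p = 0.0529, 0.208 and 0.179). For Cyp4f18 the adjusted p was 0.00508 in DESeq2 and 3.57e-07 without WT recipient 1, but 0.106 in limma voom, 0.106 without WT recipient 2, 0.195 and 0.182 without JAK1 GOF recipient 1 and 2, and 0.192 in a fit of all 14 libraries. Without WT recipient 1, which differed from the other chimera libraries in Rps3a2 (5 CPM against at most 0.448 CPM), 11 members were called, 8 higher and 3 lower, where 5.16% of all genes were called.

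Several marker groups moved with the chimera values. Heart muscle markers summed to 619 and 617 CPM in JAK1 GOF recipients against 275 and 390 CPM in WT recipients, with 8 of 12 called higher, and fat cell markers to 195 and 271 CPM against 99.7 and 121 CPM. Club cell markers summed to 11528 and 12782 CPM against 10106 and 8025 CPM, with 1 of 12 called (Bpifa1), and ciliated cell markers to 779 and 740 CPM against 613 and 603 CPM. Xist, expressed from the inactive X chromosome of female cells, was at 62.9 and 73.2 CPM against 122 and 132 CPM, and at most 5.11 CPM in the other 10 libraries. Xist with the Y-linked genes Ddx3y, Eif2s3y, Uty and Kdm5d summed to 174 and 236 CPM against 301 and 280 CPM. Y-linked RNA was thus present in every chimera library beside Xist. Of 16 clock genes, 6 were higher and 2 lower at an unadjusted p under 0.05, with a median of 0.23. The 2 called were Dbp and Nr1d1. Dbp rose to 123 and 105 CPM against 72.4 and 52.5 CPM, and Nr1d1 to 251 and 201 CPM against 138 and 101 CPM. Alveolar macrophage markers summed to 654 to 662 CPM against 1443 and 2121 CPM, with 2 of 8 called lower, and T cell markers to 94.9 and 73.1 CPM against 147 and 170 CPM, with 4 of 9 called lower. B and plasma cell markers summed to 265 and 225 CPM against 447 and 554 CPM, with 2 of 9 called lower and 7 lower at an unadjusted p under 0.05, and goblet cell markers to 286 and 222 CPM against 789 and 1240 CPM, with 4 of 9 lower at that level. The part of all these in the enzyme values was not tested. The cystine importer Slc7a11 fell to 8.33 and 9.07 CPM against 16.3 and 20.4 CPM (edgeR adjusted p = 0.0267 at a log2 fold change of −1.07). It was the only gene called among the pathway lists other than the clock genes.

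The direction differed between experiments for many members. A log2 fold change below 0 after subcutaneous RTX and above 0 in JAK1 GOF recipients was found in 40 of the 73 (54.8%, against 33.6% of all genes tested in both). Below 0 after subcutaneous RTX were 58 members, and above 0 in JAK1 GOF recipients 46, so a large overlap follows from these shifts alone. The 58 became 47 without subcutaneous vehicle 1, and the 46 became 40 without WT recipient 2. Cyp4f18 had the opposite pair of signs at 0.92 and −0.84. The difference between these contrasts was not tested here.

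The 4 chimera libraries differed in level from the 10 others in several members, given as a description. Irradiation, transplant, the higher Xist level given above and the table of origin differed together and cannot be told apart. Some of the chimeras also carried JAK1 GOF. All 4 lay above the other 10 in 11 members (15.1%, against 8.71% of all genes with a mean of at least 1 CPM) and below them in 4 (5.48%, against 8.95%). The widest gap was in Aldh1a3, which makes retinoic acid in the airway epithelium (chromosome 7, 66390890 to 66427517, minus strand). It was at 3.72 and 4.29 CPM in JAK1 GOF recipients and at 6.14 and 18.5 CPM in WT recipients. In the 5 intrathecal libraries it was at 93.5 to 103 CPM and in the 5 subcutaneous ones at 58.5 to 151 CPM. Aldh1a2, another retinal dehydrogenase, had a median of 41.3 CPM in the chimeras and 73 CPM elsewhere, and Aldh1a7 103 and 168 CPM. Above the others lay Fmo2, with a median of 843 CPM in the chimeras and 446 CPM elsewhere, and Aldh2, with 836 and 509 CPM.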

How the data were processed

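Lung RNA was sequenced in 14 libraries, and the authors deposited 3 tables of estimated counts per gene and library, not normalised. The submitters' processing notes name FastQC 0.11.8, Trim Galore 0.6.6, STAR 2.7.5b, Salmon 1.2.1 and GRCm38; of the annotation release and the strand setting it can only be said that they are not given in the sources used here, so overlapping and antisense genes are uncertain. All 14 value columns were used. Library totals ranged from 18198872 to 24393000 counts.

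CPM were computed from the unrounded values and library totals. For tests the estimated counts were rounded to whole numbers, genes were kept by edgeR's filterByExpr (minimum count 10, minimum total 15), scaled by TMM and fitted with edgeR 4.0.16 (R 4.3.3) by the quasi-likelihood test with a robust prior, with the libraries of 1 experiment in each fit. Adjusted p-values are Benjamini-Hochberg over every gene in the fit, called below 0.05; edgeR adjusted p in the text means this value. The difference between the RTX routes came from 1 fit of both experiments with an interaction term. DESeq2 1.42.0 and limma voom 3.58.1, other scalings, filters and sets of libraries were alternatives, and the procedure was tested on simulated data. Groups lie apart when every library of one has a higher CPM than every library of the other. Libraries of 1 group differed by 9.57 to 23.1 chi-square units per degree of freedom and were counted separately. Positions and exon lengths came from GENCODE M21 and promoter sequences from RefSeq (GRCm38.p6). Shared sequence was counted as words of 31 bases.

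The members, the pathway and marker lists and the tests were chosen with earlier results of these data known. Genes named were the called ones, up to 6 each way per comparison by fold change among members with an unadjusted p under 0.05 whose groups lie apart, the most abundant per family, a fixed list of lung enzymes and those nearest the level limit; the values of 1 such gene are not reported here, though it is counted among the 73. In the pathway lists Ahr, Tiparp, Ahrr, Nqo1, Por, Cebpb and Nfe2l2 were named after their values were seen, as were Xist, the Y-linked genes, Rps3a2 and Hmga2. Other alternatives chosen after seeing the data were the lead counts without subcutaneous vehicle 1 and without the members of amino acid, folate or carnitine metabolism. Python 3.11.15 and matplotlib 3.10.9 were used for summaries and figures.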

Additional observations from a re-analysis of the deposited data

How the results depend on the processing

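Each experiment has 2 controls, so counts of calls moved with the method, and a lone library left after omission is assumed to vary like the others. The enzyme genes called in JAK1 GOF recipients, intrathecal RTX, subcutaneous RTX and the difference between routes numbered 1, 0, 0 and 0. They numbered 4, 1, 15 and 2 with DESeq2 and 7, 4, 10 and 2 with no low-count filter. With an adjusted p under 0.1 they were 3 in JAK1 GOF recipients, 2 after subcutaneous RTX and 1 for the difference. In JAK1 GOF recipients the count was 2 with library totals alone or with at least 1 CPM in 2 libraries, and 0 with limma voom, without the robust prior and in both fits of all 14 libraries. After subcutaneous RTX it was 5 with all 14 libraries in 1 fit and 9 with library state added, state being set by Rps3a2 and Hmga2 above 2 CPM. Leaving out 1 library gave 0 to 11, 0 to 0, 0 to 24 and 0 to 0.

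Over all genes the counts were 124, 54, 0 and 10. They were 305, 254, 761 and 312 with DESeq2, 807, 655, 807 and 147 with no filter, and 286, 123, 62 and 47 at an adjusted p under 0.1. All 14 libraries in 1 fit gave 50, 7, 71 and 0, and with library state 177, 5, 184 and 6. In JAK1 GOF recipients and after intrathecal RTX, limma voom gave 45 and 37 and the fit without the robust prior 79 and 34. Leaving out 1 library gave 83 to 919, 19 to 40, 0 to 871 and 0 to 90.

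Of 813 alternative values of 50 single-gene results, 727 kept direction and side of the threshold, 79 passed it newly, 6 no longer passed it and 1 reversed: Sult1a1 after intrathecal RTX was 0.23 with library state. State and RTX coincide in the intrathecal experiment, so the size of that term came from other libraries. The cause was not tested. With a replicate block 1, 0, 0 and 0 enzyme genes and 123, 50, 0 and 2 of all genes were called. Deviations of same-numbered libraries from their group means correlated at 0.033 in the chimeras. They correlated at −0.129 and −0.114 in the intrathecal and −0.089 and −0.043 in the subcutaneous experiment. With so few libraries a group, these values cannot show whether the numbers pair the samples.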
